A study of Mus musculus with 32 samples.

Results

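The Fc gamma receptor genes of the mouse were followed here in spinal cord RNA. They are the 4 receptors for IgG, Fcgr1, Fcgr2b, Fcgr3 and Fcgr4, and Fcer1g, the gene of the common gamma chain. They were taken by gene name, and all 5 were found among the 42524 genes of the count table. All 5 also passed the filter on low counts in every main fit, so no member is missing from the comparisons below. Fcgr4 passed it at 155 days only through the groups in which it was high, as described below. In some of the alternative fits Fcgr4 did not pass. RNA was sequenced from 32 mice, 4 in each of 8 groups set by genotype, treatment and age. The mice were wildtype (WT) or carried the mutant human SOD1 transgene G93A, a model of amyotrophic lateral sclerosis (ALS), and were either untreated or given OKN007. Tissue was taken at 90 or 155 days by the labels of the samples, whereas the methods of the study put the early time slightly later. WT mice were C57BL/6J littermates of the G93A mice, whose line, B6-Tg(SOD1-G93A)1Gur/J(G93AGur1), carries many copies of the transgene on the same background and expresses it in all tissues. OKN007, a nitrone with antioxidant and anti-inflammatory activity, was given in drinking water. By the methods of the study, the cohorts killed at the early age and at 155 days received the higher of its doses. Cohorts killed at 155 days had been treated either from a young age or from disease onset, and which of them was sequenced is not given in the sources used here. Each value belongs to 1 mouse, and no mouse was sampled at both ages. The human transgene has no gene in the mouse table, so the genotype labels could not be checked from it.

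Fc gamma receptors bind the constant part of IgG and thereby let phagocytes respond to antibody-coated material. Fcgr1, a high affinity receptor, and Fcgr3 and Fcgr4, which bind IgG complexes, pass the signal on through the gamma chain encoded by Fcer1g, whose immunoreceptor tyrosine-based activation motif (ITAM) is phosphorylated by Src family kinases and then recruits Syk. Fcgr2b has an inhibitory motif in its own cytoplasmic tail, recruits the lipid phosphatase encoded by Inpp5d and counteracts the activating receptors on the same cell. In the spinal cord, microglia are the main cells known to carry these receptors, and border macrophages, monocytes, neutrophils, natural killer cells, mast cells and B cells carry some of them.

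In the GRCm38 annotation (GENCODE M21), Fcgr1 (ENSMUSG00000015947) lies on the minus strand at chr3:96282909-96293969. The other 4 genes lie on chromosome 1 in the order Fcgr2b (ENSMUSG00000026656) at chr1:170958617-170976547, Fcgr4 (ENSMUSG00000059089) at chr1:171018920-171029761, Fcgr3 (ENSMUSG00000059498) at chr1:171051174-171064935 and Fcer1g (ENSMUSG00000058715) at chr1:171229572-171234365. Fcgr4 is on the plus strand and the other 3 are on the minus strand. Fcgr2b and Fcgr3 are close relatives in sequence. Of all stretches of 50 bases in the transcripts of Fcgr3, 9.58% also occurred in Fcgr2b, and 2.92% of those of Fcgr2b occurred in Fcgr3, so reads from these stretches may have been left out or assigned to either gene. In all, 4.38% of the stretches of Fcgr2b were shared with some other gene. Fcgr1, Fcgr4 and Fcer1g shared 0 stretches of this length with any other gene. Fcgr2b overlaps the antisense gene Gm38204 by 155 exon bases, and the strand setting used for counting is not given in the sources used here.

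The 250 bases before each RefSeq transcription start (GRCm38.p6) were searched on both strands for 3 short motifs of myeloid and interferon-responsive promoters. The core of the PU.1 box, GAGGAA or its reverse complement TTCCTC, was found in the windows of Fcgr1, Fcgr3 and Fcgr4, and its letters were not in those of Fcgr2b and Fcer1g. The RefSeq start of Fcgr2b lies inside the longer GENCODE gene, and 187 of the 250 bases of its window are annotated exon. Of 32817 promoter windows of this length, 23.3% hold this core. The 30 bases around each match are printed below in the direction of the gene, since they show how alike the 3 matches are, with the match in capitals.

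Fcgr1, chr3:96294007-96294036, minus strand: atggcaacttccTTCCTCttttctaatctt

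Fcgr3, chr1:171059392-171059421, minus strand: gagtccatttccTTCCTCtttttgtagttc

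Fcgr4, chr1:171018892-171018921, plus strand: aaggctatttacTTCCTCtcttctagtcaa

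In all 3 genes the core is read in its reverse orientation along the gene and is embedded in a pyrimidine-rich stretch. The match lies 55 bases before the start of Fcgr1 and 22 bases before that of Fcgr4. In Fcgr3 it lies 15 or 6 bases before the start, depending on which of 2 RefSeq starts is taken, and both of these starts lie within the longer Fcgr3 gene of the GENCODE annotation. A GAS element, TTCNNNGAA, was found 109 bases before the start of Fcgr1 and is held by 7.0% of all windows. An interferon-stimulated response element, here GAAA repeated after a gap of 2 bases, was found 73 bases before the start of Fcgr4 and is held by 3.0% of all windows. These are matches of letters and were not tested for binding. The full window of Fcgr1, chr3:96293970-96294219 on the minus strand, holds no annotated exon and is given with the PU.1 core in capitals.

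Fcgr1 window: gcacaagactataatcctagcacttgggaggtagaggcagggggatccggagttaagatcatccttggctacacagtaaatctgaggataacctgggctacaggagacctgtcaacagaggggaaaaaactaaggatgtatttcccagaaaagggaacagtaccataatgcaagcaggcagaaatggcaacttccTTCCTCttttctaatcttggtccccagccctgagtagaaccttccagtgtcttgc

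The libraries held 19701722 to 30138257 counted reads, the median mouse having 26658755. Levels are given as counts-per-million (CPM), with edgeR's TMM factors over all 32 mice, and 3 counts in the smallest library correspond to 0.152 CPM, a limit that covers counting error only. For each age, differences between groups were tested two-sided with the quasi-likelihood method of edgeR and adjusted over all genes tested, and a gene was called at an adjusted p under 0.05. Of the 32 libraries, 3 held 46.35 to 141.5 CPM of the liver transcript Alb, namely replicate 6 of the OKN007-treated WT mice at 90 days, replicate 12 of the untreated G93A mice at 155 days and replicate 15 of the OKN007-treated G93A mice at 155 days. At 155 days, the mean score of 9 caudal Hox genes, as log2(CPM + 1), was 2.61 in untreated G93A mice against 4.04 in untreated WT mice, and the part of the cord level sampled in the results was not tested directly.

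At 155 days all 5 genes were higher in untreated G93A than in untreated WT mice, by 7.46-fold for Fcgr1 to 23.0-fold for Fcgr2b. In each of them, every G93A mouse was above every WT mouse. All 5 were called, against 21.3% of 18675 genes tested that were called higher, and 17.4% of these genes had all G93A mice above all WT mice. The median log2 fold change of the 5 genes was 3.43, whereas that of all genes tested was 0.00. RNA of whole tissue cannot tell more receptor-bearing cells from more RNA per cell.

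Among the activating receptors, Fcgr1 stood at 3.20, 2.73, 2.94 and 2.43 CPM in the untreated WT mice at 155 days. In the untreated G93A mice it stood at 17.7, 30.2, 22.7 and 13.2 CPM. The lowest G93A mouse was thus well above the highest WT mouse, and the log2 fold change was 2.90 (SE 0.20, adjusted p = 1.66e-09).

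Fcgr3, the activating receptor with the most reads, stood at 5.92, 7.42, 4.32 and 5.84 CPM in the 4 WT mice. It stood at 46.5, 68.9, 69.3 and 38.7 CPM in the 4 G93A mice. The groups were far apart, with a log2 fold change of 3.26 (SE 0.19, adjusted p = 1.96e-10).

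Fcgr4 was the least abundant member and rested on few reads in WT mice. Its counts were 3, 5, 7 and 1 in the untreated WT mice, which corresponds to 0.112, 0.217, 0.267 and 0.0328 CPM. Its counts were 33, 91, 66 and 50 in the untreated G93A mice, or 1.29, 3.76, 2.71 and 1.65 CPM. The log2 fold change was 3.92 (SE 0.56, adjusted p = 2.03e-05), and the 95% interval of its fold was the widest of the 5 genes, from 6.71 to 34.2. In 2 of the 4 WT mice the count did not exceed 3. At 155 days Fcgr4 passed the filter through the G93A mice, since WT mice of both treatments held 0 to 10 counts. Its calls at this age therefore do not stand apart from the filter.

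Fcer1g, whose gamma chain the activating receptors need for surface expression and signalling, stood at 5.55, 7.37, 6.42 and 5.51 CPM in the WT mice. It reached 54.0, 85.5, 83.9 and 41.6 CPM in the G93A mice. Its log2 fold change of 3.43 (SE 0.21, adjusted p = 3.27e-10) lay between those of Fcgr3 and Fcgr4.

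Fcgr2b, the inhibitory receptor, stood at 2.38, 2.52, 2.64 and 2.46 CPM in untreated WT mice at 155 days. It was the most uniform of the 5 genes in these mice, but not in untreated WT mice at 90 days. In the untreated G93A mice at 155 days it stood at 40.4, 76.8, 71.9 and 39.6 CPM. This was the largest change of the 5 genes, with a log2 fold change of 4.53 (SE 0.22, adjusted p = 1.82e-11), and it was the 70th largest log2 fold change of the 18675 genes tested. The 95% interval of its fold, 16.9 to 31.5, lay above those of Fcgr1 (5.58 to 9.98), Fcgr3 (7.31 to 12.6) and Fcer1g (7.97 to 14.6) and overlapped that of Fcgr4. The difference between the changes of 2 genes was not itself tested.

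The 4 untreated G93A mice did not carry the same levels at 155 days. Replicates 10 and 11 were the 2 highest mice for all 5 genes, and replicates 9 and 12 the 2 lowest, so that the coefficient of variation ranged from 28.0% for Fcgr3 to 47.4% for Fcgr4. Replicate 12 is the library of this group with liver transcripts. Without the 3 libraries of highest Alb, the log2 fold changes were 3.07 for Fcgr1, 4.67 for Fcgr2b, 3.41 for Fcgr3, 4.06 for Fcgr4 and 3.601 for Fcer1g, each slightly larger than with them. With a covariate for the caudal Hox score they were 2.61, 4.47, 3.22, 3.79 and 3.33 in the same order. All 5 genes remained called in both of these fits. The Hox scores of the genotypes did not overlap at this age, so the covariate fit cannot separate cord level from genotype. The scores were 3.756 to 4.48 in untreated WT and 1.627 to 3.6 in untreated G93A mice. In OKN007-treated mice they were 4.306 to 4.536 in WT and 2.375 to 3.608 in G93A mice.

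**Figure D1:**
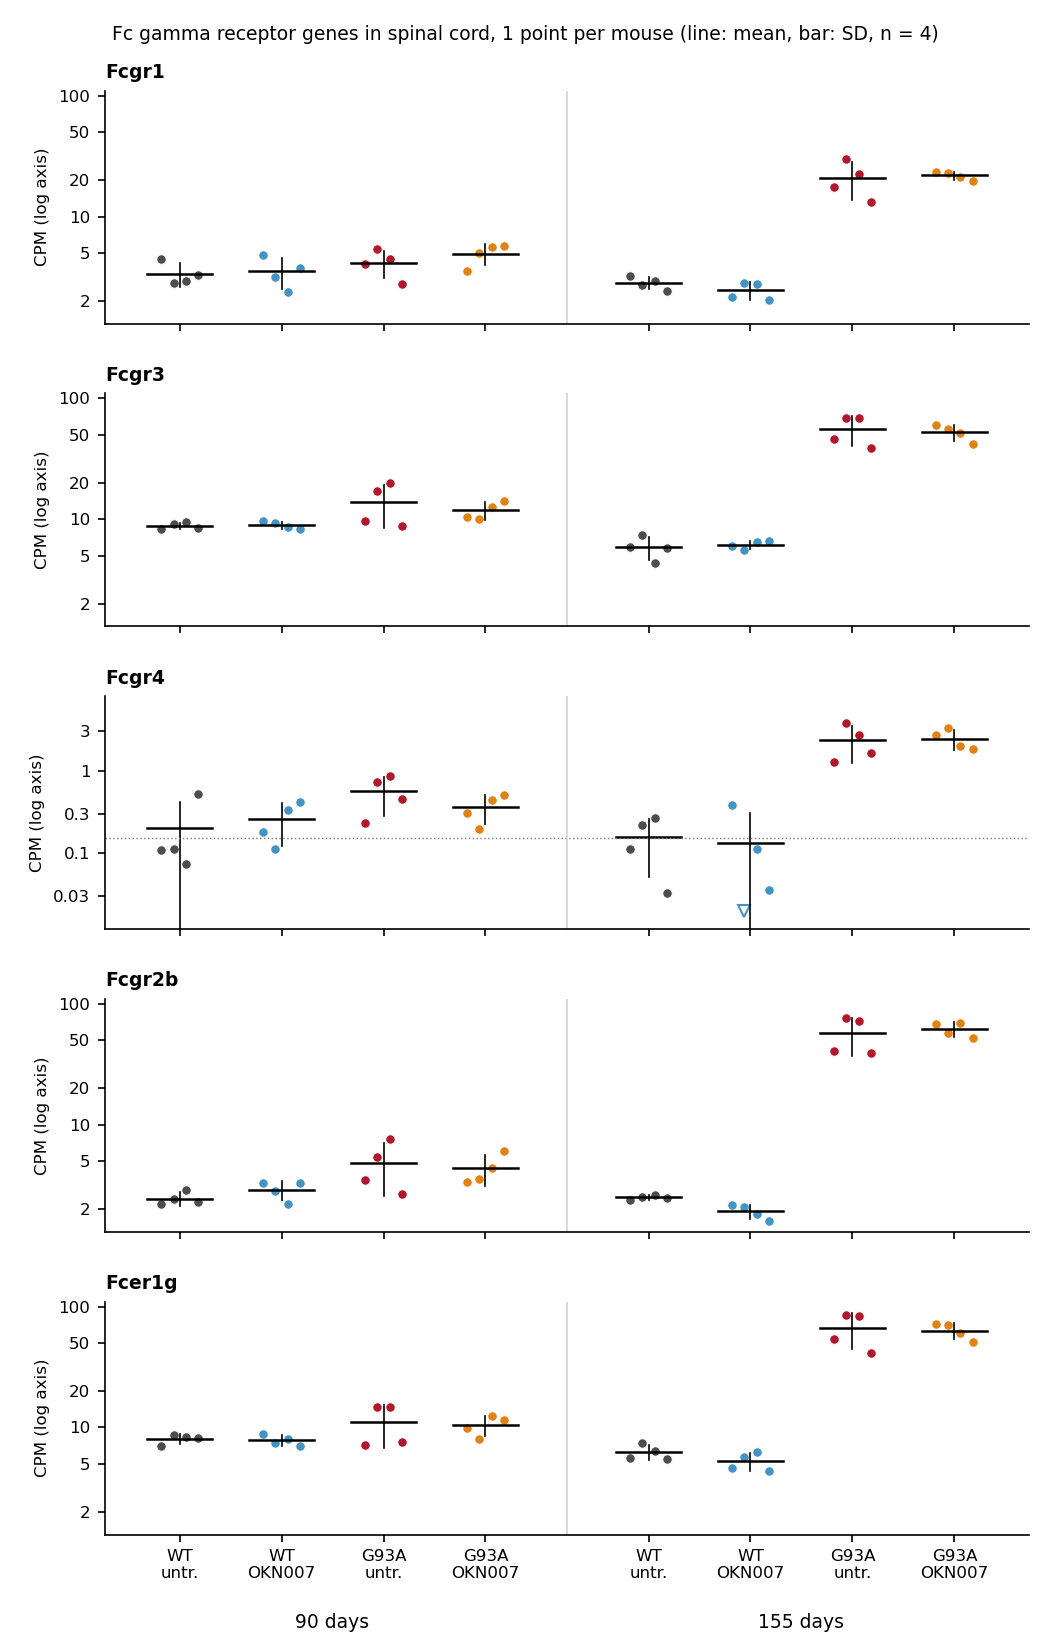
Levels of the 5 genes in each of the 32 mice, in CPM on a log axis, by genotype, treatment (untr., untreated) and age. Points are mice, horizontal lines means and vertical bars SD (n = 4, cut at the lower edge of the axis for Fcgr4), the dotted line marks 3 counts in the smallest library (0.152 CPM), and the open triangle is a mouse with 0 counts of Fcgr4. At 155 days all points of the G93A groups lie above all points of the WT groups for each gene, whereas at 90 days the groups overlap or lie close together.

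Levels of different genes were compared per kilobase of exon. In untreated WT mice at 155 days the order was Fcer1g, at 7.11 ± 1.01 CPM per kilobase, then Fcgr3 at 3.38 ± 0.730, Fcgr1 at 1.09 ± 0.127, Fcgr2b at 0.432 ± 0.0184 and Fcgr4 at 0.125 ± 0.0838 (SD, n = 4). Neighbours in this order were separated by more than their SDs. In untreated G93A mice at 155 days the levels were 75.8 ± 25.1 for Fcer1g, 32.2 ± 9.01 for Fcgr3, 9.87 ± 3.45 for Fcgr2b, 8.09 ± 2.80 for Fcgr1 and 1.87 ± 0.889 for Fcgr4 (SD, n = 4). Fcgr2b had passed Fcgr1 in this order, but these 2 levels differed by less than their spread. The order of all 4 WT groups and of both G93A groups at 90 days was the one of the untreated WT mice. It depends on the length taken for Fcgr2b, whose union of exons is 5790 bases and whose median coding transcript is 1520 bases. With the latter, Fcgr2b stood above Fcgr1 in every group, and at 40.9 ± 5.63 CPM per kilobase was level with Fcgr3 at 39.7 ± 5.96 in OKN007-treated G93A mice at 155 days (SD, n = 4).

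The balance of the inhibitory receptor against Fcgr3 can be read within each mouse, where the library total and the length of the genes do not matter for comparisons between mice. The ratio of Fcgr2b to Fcgr3 CPM was 0.403, 0.339, 0.611 and 0.421 in the untreated WT mice at 155 days. It was 0.868, 1.11, 1.04 and 1.02 in the untreated G93A mice of the same age. Every G93A mouse therefore had a higher share of the inhibitory receptor than every WT mouse, and no test was run on this ratio. In the OKN007-treated mice at 155 days, the ratio was 0.315 ± 0.0642 in WT and 1.19 ± 0.139 in G93A mice (SD, n = 4). At 90 days the group means ran only from 0.277 in untreated WT to 0.362 in OKN007-treated G93A mice. The untreated WT mice, at most at 0.307, lay below the treated G93A mice, which started at 0.321, and the 2 genotypes overlapped within each treatment. Between the ages, the ratio was also higher at 155 days in untreated WT mice, at 0.339 to 0.611 against 0.263 to 0.307. Treated WT mice overlapped between the ages, at 0.239 to 0.374 at 155 days and 0.257 to 0.401 at 90 days. The ratio of Fcgr1 to Fcgr3, both activating receptors, did not separate the genotypes in this way and at 155 days was 0.502 ± 0.140 in untreated WT and 0.372 ± 0.0492 in untreated G93A mice (SD, n = 4). That of Fcer1g to Fcgr3 was 1.09 ± 0.266 and 1.17 ± 0.0719 in these groups, which overlapped (SD, n = 4). In the OKN007-treated mice of this age the Fcer1g to Fcgr3 ratio did not overlap, at 0.654 to 1.02 in WT and 1.17 to 1.26 in G93A mice.

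**Figure D2:**
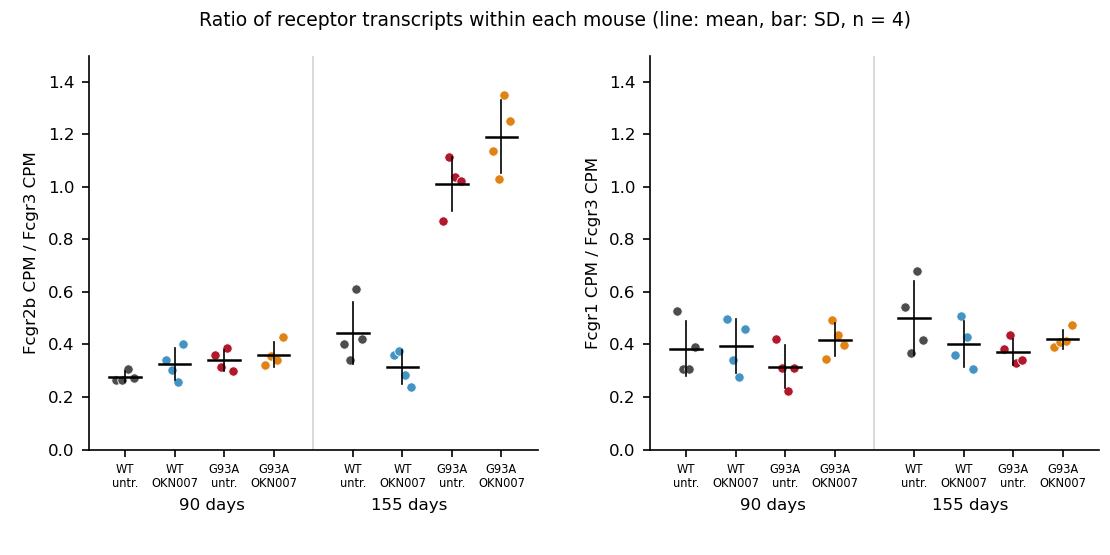
Ratio of Fcgr2b to Fcgr3 CPM (left) and of Fcgr1 to Fcgr3 CPM (right) within each mouse, by genotype, treatment (untr., untreated) and age, with the mean (line) and SD (bar) of 4 mice. The ratio on the left lies between 0.868 and 1.35 in the 8 G93A mice at 155 days and at most at 0.611 in all other mice, whereas the groups on the right overlap.

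OKN007-treated mice showed the same genotype difference at 155 days. Fcgr2b was at 1.59 to 2.17 CPM in the treated WT mice and at 52.4 to 70.0 CPM in the treated G93A mice, a log2 fold change of 5.05 (SE 0.22, adjusted p = 5.73e-12). The log2 fold changes of the others were 3.19 for Fcgr1 (2.05 to 2.84 CPM against 19.8 to 23.6 CPM), 3.13 for Fcgr3 (5.58 to 6.64 against 42.0 to 60.5) and 3.63 for Fcer1g (4.34 to 6.27 against 50.7 to 71.3). For Fcgr4 it was 4.23 (SE 0.57), with 10, 0, 3 and 1 counts in the treated WT mice and 80, 90, 59 and 45 counts in the treated G93A mice. Without replicate 5 of the treated WT mice, the one with 10 counts, it was 5.57. All 5 genes were called higher, against 23.3% of 18675 genes tested, and in all 5 the genotypes did not overlap, against 22.6% of genes tested with all treated G93A mice above all treated WT mice. Replicate 16 was the lowest of the treated G93A mice for all 5 genes. All 5 genes varied less between mice in treated than in untreated G93A mice at this age. The coefficient of variation ran from 7.5% for Fcgr1 to 27.2% for Fcgr4 in treated mice. In untreated mice it ran from 28.0% for Fcgr3 to 47.4% for Fcgr4, with Fcgr1 at 34.6%. The summed level of 9 microglia markers was likewise less spread in treated G93A mice (1334 to 1588 CPM) than in untreated ones (1123 to 1830 CPM). These differences in spread were not tested, and no share over all genes was taken.

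The study asked whether OKN007 lessens inflammation in this model, and the effect of the drug on the receptors was compared at each age. In G93A mice at 155 days, treated and untreated means were 21.9 and 20.95 CPM for Fcgr1, 62.2 and 57.2 for Fcgr2b, 52.6 and 55.9 for Fcgr3, 2.45 and 2.35 for Fcgr4 and 63.2 and 66.2 for Fcer1g. Treated and untreated mice overlapped for each gene. None of the 5 was called and none had an unadjusted p under 0.05 by edgeR's quasi-likelihood test, and 0 genes were called among all 18675 tested (0.0%), with 755 genes (4.04%) at an unadjusted p under 0.05. By DESeq2, 0 of the 5 were called as well. The 95% interval of the treated over the untreated level was 0.821 to 1.36 for Fcgr1, 0.860 to 1.402 for Fcgr2b, 0.750 to 1.21 for Fcgr3, 0.588 to 1.90 for Fcgr4 and 0.743 to 1.25 for Fcer1g. A difference beyond these bounds was thus outside the interval, but smaller effects in either direction could not be resolved with 4 mice per group.

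In WT mice at 155 days, Fcgr2b stood at 2.17, 2.09, 1.83 and 1.59 CPM with OKN007, each below all 4 untreated WT mice at 2.38 to 2.64 CPM. Of 18675 genes tested, 0.862% had all treated WT mice below all untreated ones. The log2 fold change of Fcgr2b was −0.39 (SE 0.26, unadjusted p = 0.148, adjusted p = 1.0), which did not pass the test. The treated and untreated WT mice overlapped for the other 4 genes, and none of the 5 was called. The difference of the drug effect between genotypes at 155 days was largest for Fcgr2b, at 0.53 on the log2 scale (SE 0.31, adjusted p = 1.0), and 0 of the 5 genes were called for it. By edgeR, 437 of the genes tested (2.34%) had an unadjusted p under 0.05 for this interaction and 0 were called (0.0%), as also for OKN007 in WT mice, with 549 genes (2.94%) at an unadjusted p under 0.05 and 0 called (0.0%).

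At 90 days OKN007-treated and untreated mice overlapped for all 5 genes in both genotypes. In G93A mice the log2 fold changes with OKN007 were 0.26 for Fcgr1 (SE 0.23), −0.13 for Fcgr2b (SE 0.27), −0.22 for Fcgr3 (SE 0.20), −0.60 for Fcgr4 (SE 0.55) and −0.07 for Fcer1g (SE 0.21). In WT mice they lay between −0.05 for Fcer1g and 0.35 for Fcgr4, the latter being 1.35 without replicate 4 of the untreated WT mice. None of these values, and none of the interactions, passed the test or had an unadjusted p under 0.05, while 1050 of 18899 genes (5.56%) in G93A mice, 769 (4.07%) in WT mice and 531 (2.81%) for the interaction had one by edgeR's quasi-likelihood test, with 0 genes called in each (0.0%).

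**Figure D3:**
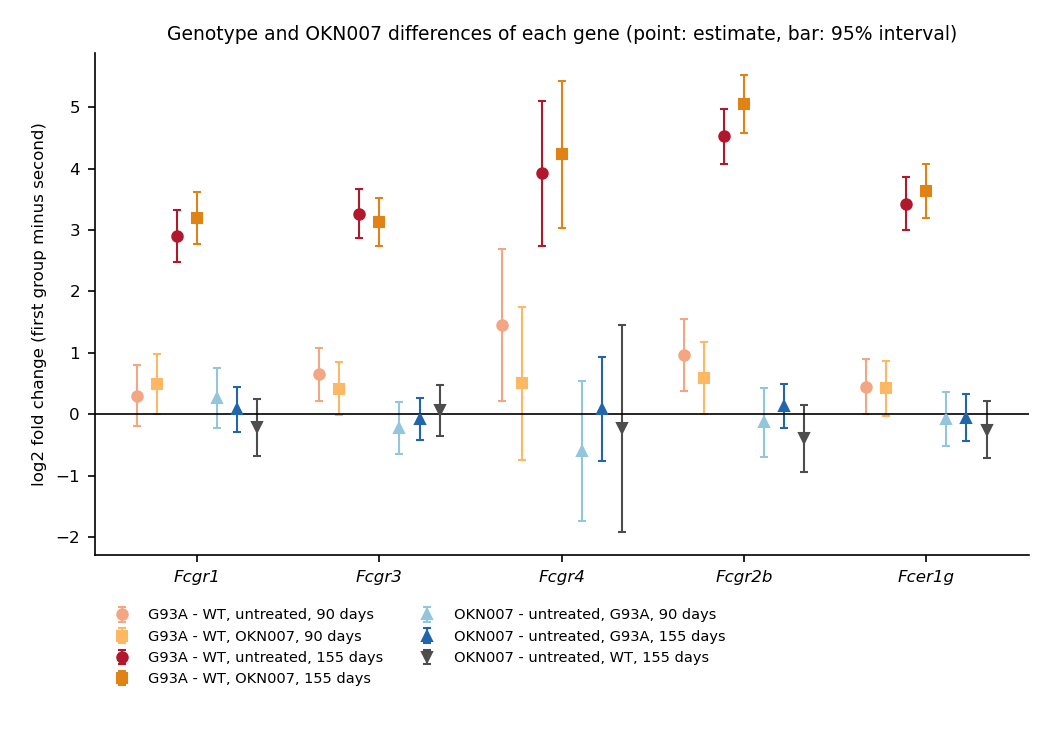
Log2 fold change of each gene in 7 comparisons, with its 95% interval from edgeR's quasi-likelihood fit (4 mice per group). The genotype differences at 155 days lie between 2.90 and 5.05, those at 90 days between 0.30 and 1.45, and the intervals of the OKN007 comparisons all include 0.

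Before the late stage, at 90 days, the receptors were moderately higher on average in G93A mice, and none passed the adjusted test. Fcgr2b stood at 2.21, 2.41, 2.90 and 2.28 CPM in untreated WT mice and at 3.46, 5.44, 7.64 and 2.65 CPM in untreated G93A mice. Replicates 9, 10 and 11 of the G93A mice were above all 4 WT mice, and replicate 12 fell within the WT range. Its log2 fold change was 0.97 (SE 0.28, unadjusted p = 0.00268, adjusted p = 0.794). For Fcgr3 the WT mice stood at 8.36, 9.14, 9.45 and 8.39 CPM and the G93A mice at 9.65, 17.3, 19.8 and 8.88 CPM, with a log2 fold change of 0.65 (SE 0.20, adjusted p = 0.794). Here too replicates 10 and 11 stood apart from the other G93A mice.

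The same pair of mice was highest for Fcer1g, which stood at 7.23, 14.7, 14.7 and 7.53 CPM in untreated G93A mice against 6.995, 8.74, 8.41 and 8.15 CPM in untreated WT mice (log2 fold change 0.45, SE 0.21). They were also highest for Fcgr1 and Fcgr4, so that all 5 genes ranked replicates 10 and 11 first. The log2 fold change of Fcgr4 was 1.45 (SE 0.59), from 3, 3, 2 and 13 counts in WT and 6, 15, 20 and 13 counts in G93A mice, and that of Fcgr1 was 0.30 (SE 0.24). The value of Fcgr4 rested in part on replicate 4 of the WT mice, the one with 13 counts, and was 2.45 without it. Of the 5 genes, 4 had an unadjusted p under 0.05 in the higher direction, Fcgr1 being the exception, against 3.17% of 18899 genes tested. Across the table, edgeR's quasi-likelihood test called 0 genes (0.0%) and gave 1126 genes an unadjusted p under 0.05.

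Among OKN007-treated mice at 90 days, all G93A mice were above all WT mice for 2 of the 5 genes, against 1.58% of 18899 genes tested. These were Fcgr2b, at 3.33, 3.58, 4.36 and 6.11 CPM against 3.28, 2.81, 2.22 and 3.31 CPM, and Fcgr3, at 10.4, 10.1, 12.7 and 14.3 CPM against 9.66, 9.24, 8.63 and 8.25 CPM. The separation was narrow, the highest WT mouse being close to the lowest G93A mouse in both. Fcgr2b (log2 fold change 0.59, SE 0.28) and Fcgr1 (0.50, SE 0.23) had an unadjusted p under 0.05, against 2.19% of genes tested in the higher direction, and 0 of the 5 were called. Replicates 15 and 16 were the 2 highest treated G93A mice for all 5 genes.

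With both treatments averaged, which sets 8 G93A against 8 WT mice at 90 days, all 5 genes had an unadjusted p under 0.05 in the higher direction, against 3.74% of 18899 genes tested. The same G93A mice were highest for all 5 genes in each treatment, so these are not 5 independent results. The log2 fold changes were 0.78 for Fcgr2b (SE 0.20, adjusted p = 0.255), 0.53 for Fcgr3 (SE 0.14, adjusted p = 0.324), 0.98 for Fcgr4 (SE 0.42, adjusted p = 0.672), 0.44 for Fcer1g (SE 0.15, adjusted p = 0.551) and 0.40 for Fcgr1 (SE 0.17, adjusted p = 0.656). Without replicate 4 of the untreated WT mice, Fcgr4 was at 1.48 and still not called. None was called, and 0.0159% of genes tested were called higher, 3 in number. The outcome for Fcgr2b and Fcgr3 depended on the fit. Without replicate 12 of the untreated G93A mice, Fcgr2b (adjusted p = 0.0358) and Fcgr3 (adjusted p = 0.0433) were called, and with no filter on low counts they were called as well (adjusted p = 0.00831 and 0.0105). DESeq2 called Fcgr2b alone (adjusted p = 0.0337). No other alternative called either gene. Over all alternatives, by edgeR or DESeq2, the adjusted p of Fcgr2b ran from 0.00831 to 0.584 and that of Fcgr3 from 0.0105 to 0.628.

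Between the ages, untreated G93A mice gained in all 5 genes. The log2 differences of 155 over 90 days were 2.34 for Fcgr1 (SE 0.21), 3.59 for Fcgr2b (SE 0.24), 2.01 for Fcgr3 (SE 0.20), 2.07 for Fcgr4 (SE 0.50) and 2.59 for Fcer1g (SE 0.21). All 5 were called higher, against 21.0% of 19829 genes tested, and in all 5 every mouse of 155 days was above every mouse of 90 days, against 17.2% of genes tested. The 2 ages are different mice, and whether they were prepared together is not given, so age and preparation cannot be told apart.

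In untreated WT mice, Fcgr3 was instead lower at 155 days, at 4.32 to 7.42 CPM against 8.36 to 9.45 CPM at 90 days. Its log2 difference was −0.59 (SE 0.21, adjusted p = 0.0393), with 9.61% of 19829 genes called lower. The ages did not overlap, against 7.32% of genes with all mice of 155 days below all mice of 90 days. This call was lost in 7 of the 8 fits that left out 1 mouse, the exception being the fit without replicate 2 of 155 days, with adjusted p-values up to 0.139. The log2 differences of the other members in WT mice were −0.25 for Fcgr1, 0.03 for Fcgr2b, −0.38 for Fcgr4 and −0.38 for Fcer1g, and none of these was called.

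The G93A difference itself was larger at 155 than at 90 days. In untreated mice this genotype by age interaction was 3.56 on the log2 scale for Fcgr2b (SE 0.36, adjusted p = 1.72e-08), 2.98 for Fcer1g (SE 0.31), 2.60 for Fcgr3 (SE 0.29), 2.59 for Fcgr1 (SE 0.31) and 2.45 for Fcgr4 (SE 0.90, adjusted p = 0.0492). All 5 were called, against 12.9% of 19829 genes called in this direction. Fcgr4 was at the edge of the threshold, was not called with no filter on low counts (adjusted p = 0.0567) or with a block for the sample number (adjusted p = 0.0757), and fell to 1.49 without replicate 4 of the untreated WT mice at 90 days (adjusted p = 0.335). It was also not called without replicate 9 or 12 of the G93A mice at 90 days, replicate 1, 2 or 4 of the WT mice at 155 days, or replicate 10 or 11 of the G93A mice at 155 days, all untreated. In OKN007-treated mice the interaction was 4.42 for Fcgr2b (SE 0.37), 3.68 for Fcgr4 (SE 0.90), 3.18 for Fcer1g (SE 0.31), 2.68 for Fcgr3 (SE 0.29) and 2.66 for Fcgr1 (SE 0.31), with all 5 called against 13% of genes called in this direction. Without replicate 5 of the treated WT mice at 155 days, that of Fcgr4 was 5.02.

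The rest of the pathway was followed in 7 lists of genes in untreated mice at 155 days, where 21.3% of all genes tested were called higher and 18.2% lower. Of 14 other Fc receptors, 13 were in the table and 5 passed the filter, of which 4 were called higher and 1 lower. Fcrls, an Fc receptor-like gene of mouse microglia, rose from 9.28 ± 0.847 to 133.7 ± 34.2 CPM (SD, n = 4, log2 fold change 3.86, SE 0.15). Fcrl1, an Fc receptor-like gene best known from B cells, rose by 3.19 (SE 0.51) from 0.186 ± 0.148 CPM (SD, n = 4), a level near the depth limit. It passed the filter through the G93A mice, which stood at 0.694 to 3.16 CPM when untreated, against at most 0.390 CPM in untreated WT mice. Trim21, the cytosolic antibody receptor, rose by 0.89 (SE 0.15). Fcrlb, an intracellular relative from the same stretch of chromosome 1, fell by 0.76 on the log2 scale (SE 0.22, adjusted p = 0.00890). The 8 receptors that did not pass the filter include Ms4a2, the beta chain that the gamma chain joins in the IgE receptor of mast cells, at a mean of 0.0628 CPM in WT and 0.0811 CPM in G93A mice, both under the limit of 3 counts.

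Of 11 genes of immunoglobulin and pentraxin ligands, 2 passed the filter, and the summed level of the list was 24.1 to 33.3 CPM in untreated WT and 17.2 to 22.4 CPM in untreated G93A mice. Ighm, the heavy chain of IgM, made up most of this sum and fell by 0.46 on the log2 scale (SE 0.12, adjusted p = 0.00407). Ighg3, the heavy chain of IgG3 and the other one tested, had a log2 fold change of −0.20 (SE 0.39, adjusted p = 0.727). Neither gene tested was called higher, but Ighm is not a chain of IgG, which these receptors bind. The other IgG heavy chains of the list did not pass the filter, and antibody protein was not measured here.

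Of 3 adaptors, Tyrobp, Cd247 and Hcst, the last without an ITAM, 2 were tested and both were called higher. Tyrobp, the DAP12 adaptor that serves Trem2 and other myeloid receptors, rose from 5.06 ± 1.26 to 75.1 ± 22.1 CPM (SD, n = 4, log2 fold change 3.91, SE 0.21). Hcst, the DAP10 adaptor, which itself signals through another motif, rose by 2.41 (SE 0.66) from 0.0889 CPM, a level under the limit of 3 counts in WT mice, and was not called between OKN007-treated genotypes (adjusted p = 0.0799). Hcst passed the filter at 155 days largely on the counts of G93A mice, and at 90 days it was not tested.

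Downstream of the ITAM, all 8 proximal kinases were called higher, with a median log2 fold change of 2.22. Fgr, a Src family kinase of myeloid cells, rose by 2.89 (SE 0.24), Btk by 2.80 (SE 0.23), Tec by 2.31 (SE 0.18) and Lyn, which phosphorylates both ITAM and inhibitory motifs, by 2.24 (SE 0.13). The smallest changes, of 0.19 for Src (SE 0.07) and 0.25 for Fyn (SE 0.06), were those of the kinases that many cell types express.

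Of 18 signalling adaptors and enzymes, 13 were called higher, 1 lower and 4 were not called, with a median log2 fold change of 0.96. The largest changes were 3.13 for Blnk (SE 0.21) and 2.97 for Lat2 (SE 0.15), both linkers that Syk phosphorylates, 2.71 for Vav1 (SE 0.15), an exchange factor for Rac, and 2.44 for Lcp2 (SE 0.26), the SLP-76 adaptor.

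On the inhibitory side, 6 of 11 phosphatases and adaptors were called higher and 5 were not called, with a median log2 fold change of 0.56. Ptpn6, the SHP-1 phosphatase, rose by 3.04 (SE 0.19), Dok1 by 2.42 (SE 0.26) and Dok2 by 0.92 (SE 0.28). Inpp5d, the SHIP1 phosphatase that Fcgr2b recruits, rose by 2.17 (SE 0.15) from 9.11 ± 0.842 to 40.9 ± 10.9 CPM (SD, n = 4).

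Of 12 genes of the actin machinery of phagocytosis, 10 were called higher, 1 lower and 1 was not called, with a median log2 fold change of 1.60. The largest were 3.50 for the myosin gene Myo1f (SE 0.20), 2.76 for Rac2 (SE 0.24), 2.72 for Nckap1l (SE 0.14), a subunit of the WAVE complex, and 2.72 for Dock2 (SE 0.15), an exchange factor for Rac. In OKN007-treated mice the counts of these lists called higher were the same except for 2 lists. These gave 1 of the 2 tested among Tyrobp, Cd247 and Hcst, and 5 of 11 inhibitory genes. OKN007 against untreated in G93A mice at 155 days gave 0 calls in any of the 7 lists, and at 90 days 0 genes of the lists were called between genotypes with both treatments averaged.

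**Figure D4:**
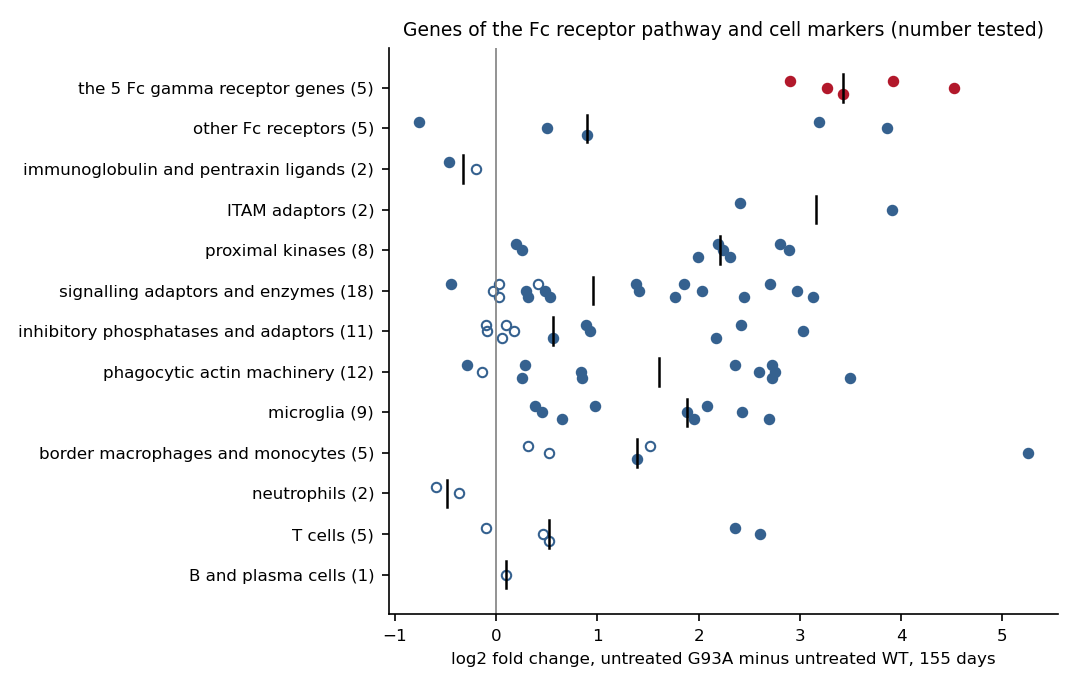
Log2 fold change in untreated mice at 155 days, G93A over WT, for the 5 Fc gamma receptor genes, 7 lists of pathway genes and 5 lists of cell markers, with the number of genes tested in parentheses. Filled points passed an adjusted p under 0.05, open points did not, and vertical lines are medians (3.43 for the 5 genes, 2.22 for the kinases, 1.60 for the actin machinery, against 0.00 for all genes).

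Markers of cells that can carry the receptors were read beside them. All 9 microglia markers were called higher in untreated G93A mice at 155 days, against 21.3% of all genes tested. Their median log2 fold change was 1.89, and none of them was at 0 in all mice of a group. Their summed level was 320.0 to 388.5 CPM in untreated WT and 1123 to 1830 CPM in untreated G93A mice. At 90 days the sum was 371.9 to 430.0 CPM in untreated WT and 375.0 to 538.9 CPM in untreated G93A mice. The part of these markers in the receptor levels was not tested. The markers were not uniform: Aif1 (IBA1) rose by 2.70 (SE 0.20) and Csf1r by 1.89 (SE 0.11), whereas P2ry12, a homeostatic purine receptor, rose by 0.39 (SE 0.13). Of the border macrophage and monocyte markers, 5 of 8 were tested and 2 called higher, Ms4a7 by 5.25 (SE 0.53) and Pf4 by 1.39 (SE 0.40), while Mrc1 (0.52, SE 0.22, adjusted p = 0.0748) and Ccr2 (1.52, SE 0.60, adjusted p = 0.0519) were not. The summed level of this list was 2.76 to 3.61 CPM in untreated WT and 5.62 to 9.60 CPM in untreated G93A mice, and its part in the receptor levels was not tested. At 90 days only 3 markers of this list were tested, so some passed the filter at 155 days only.

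Neutrophil markers summed to 0.261 to 2.86 CPM in untreated WT and 1.16 to 1.49 CPM in untreated G93A mice, with 2 of 7 tested and 0 called. Natural killer cell markers summed to at most 0.573 CPM in untreated WT and 1.29 CPM in untreated G93A mice, with 0 of 6 tested. Mast cell markers summed to at most 0.0781 CPM in the untreated G93A mice, with Cpa3 and Tpsb2 at 0 in all 4 of them. Of the T cell markers, 2 of 5 tested were called higher, Cd3g by 2.36 (SE 0.43) and Cd8a by 2.61 (SE 0.64), with a summed level of 2.65 to 4.20 CPM in WT and 4.84 to 6.33 CPM in G93A mice. At 90 days only 2 of these markers were tested. Markers with few counts in WT mice can pass the filter through the G93A mice alone. Over all genes tested at 155 days in untreated mice, 21.3% were called higher and 18.2% lower. The B and plasma cell markers summed to 1.60 to 1.95 CPM in untreated WT and 1.52 to 2.09 CPM in untreated G93A mice. The markers that identify the tissue were present, with 5 of 6 motor neuron genes lower and all 5 astrocyte genes higher in untreated G93A mice.

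The genes around the receptors were compared in the same way. Within 100 kb of the members on chromosome 1, or between them, lie 19 other protein-coding genes, of which 17 were tested. Of these, 2 were called higher in untreated G93A mice at 155 days, Cfap126 by 0.51 (SE 0.19) and Ppox by 0.29 (SE 0.10), and 2 lower, Fcrlb and Pcp4l1 (−0.40, SE 0.08), with a median log2 fold change of 0.08. Around Fcgr1 on chromosome 3, 6 of 12 neighbours were tested, 0 were called higher and 2 lower, Sv2a (−0.30, SE 0.08) and Hist2h2be (−0.42, SE 0.12). Of all 18675 genes tested in this comparison, 21.3% were called higher and 18.2% lower.

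For each member, the genes with the most similar profile over the 32 mice were found by the root mean square difference of log2 CPM (prior count 2) after centring each gene on its own mean, a description in which all genes share the same libraries. Nearest to Fcer1g were the 3 chains of complement C1q, C1qb (0.122), C1qc (0.176) and C1qa (0.181), then Ctss (0.211) and Cyba (0.214). Nearest to Fcgr3 were the cathepsin genes Ctsz (0.194) and Ctsh (0.199), then Cd53 (0.202), Ly86 (0.226) and Ifi30 (0.229). Ctsz was also the third nearest to Fcgr1 (0.228), after Cyth4 (0.198) and Ptpn6 (0.217), with Laptm5 (0.239) and Csf3r (0.247) next. Nearest to Fcgr2b were Cd68 (0.231), C3ar1 (0.295), Serpina3n (0.305), Plau (0.329) and Mpeg1 (0.338). The genes nearest to Fcgr4, Myo1f (0.583), Lag3 (0.592), Iqgap3 (0.599), Ms4a6d (0.601) and Irf8 (0.606), were more distant, and Fcgr4 was the member with the fewest counts.

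Among the members themselves, Fcgr3 and Fcer1g were closest, at a difference of 0.261, and Fcgr1 lay at 0.319 from Fcgr3. Fcgr2b lay farther off, at 0.602 from Fcer1g, 0.772 from Fcgr3 and 0.782 from Fcgr1, and so did Fcgr4, at 0.631 from Fcer1g, 0.668 from Fcgr3 and 0.738 from Fcgr1. Fcgr2b and Fcgr4 were the most distant pair, at 0.830. The genes named above for each member were nearer to it than any other member was. Counting Fcgr3 itself, 15 genes lay nearer to Fcgr3 than Fcer1g did, and 873 nearer than Fcgr2b did.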

How the data were processed

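Spinal cord RNA of 32 mice was sequenced from stranded TruSeq mRNA libraries. The authors deposited 1 table of raw gene counts, not normalized, for all mice. By the study's methods, reads were trimmed with Trimmomatic, aligned with STAR and counted with HTSeq on a GENCODE annotation of GRCm38, whereas the submitters' processing notes name FastQC, STAR, featureCounts and edgeR with the builds GRCm39, mm39 and hg38. Of the 42524 gene identifiers, 41218 (96.9%) were matched to GENCODE M21, and the other 1306 are numbered above every identifier of that release, so the counting annotation was a later one. Positions are those of GENCODE M21 and promoters those of RefSeq on GRCm38.p6. Totals per mouse were 19701722 to 30138257 counts.

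The 5 members and all gene lists were chosen with earlier results of these data known. Counts were fitted with edgeR 4.0.16 (limma 3.58.1, R 4.3.3) by filterByExpr, TMM, glmQLFit and glmQLFTest. Each age was fitted as 4 groups of 4 mice, and comparisons between ages used all 32 mice as 8 groups. Benjamini-Hochberg adjustment ran over every gene tested (18899 at 90 days, 18675 at 155 days, 19829 for both). Standard errors come from the F statistic. The labels do not say whether replicates came from separate litters or preparations, so p-values measure the spread between these mice. The procedure was tested on simulated data. The text names the members, the 4 largest called changes of each pathway list, the 5 genes nearest to each member, called neighbours within 100 kb and up to 3 markers per cell list. Genes outside this rule (Ighg3, Src, Fyn, Ms4a2 and the fourth marker of a list) were named after their values were seen. Alternatives were DESeq2 1.42.0, RLE factors, a fit of the compared groups alone, 1 fit of all 32 mice, no filter on low counts, a minimum of 10 counts per mouse, a caudal Hox score as covariate, a block for the sample number, and leaving out each mouse in turn. The fit without the 3 libraries of highest Alb and the median coding transcript length were added after seeing the data. Sample numbers recur at the 2 ages on different mice; of 16 pairs of same-numbered samples, 2 correlated above 0.1, so they were not treated as paired.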

Additional observations from a re-analysis of the deposited data

Results flagged for a closer look

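The genotype by age interaction, a test of whether the G93A difference at 155 days differs from that at 90 days, passed for all 5 genes in both treatments. In untreated mice it was 2.59 for Fcgr1 (adjusted p = 3.01e-07), 3.56 for Fcgr2b (1.72e-08), 2.60 for Fcgr3 (6.14e-08), 2.45 for Fcgr4 (0.0492) and 2.98 for Fcer1g (1.98e-08) on the log2 scale. In OKN007-treated mice it was 2.66 for Fcgr1 (adjusted p = 1.65e-07), 4.42 for Fcgr2b (4.88e-10), 2.68 for Fcgr3 (2.91e-08), 3.68 for Fcgr4 (0.00332) and 3.18 for Fcer1g (4.94e-09).

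One mouse lay apart from the rest of its group. Replicate 4 of the untreated WT mice at 90 days had 0.519 CPM of Fcgr4, from 13 counts, and the next mouse of the group had 0.111 CPM. It was the only such mouse among the 40 combinations of gene and group, of which about 2.0 would be marked by chance, and without it the untreated interaction of Fcgr4 was 1.49.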

How the results depend on the processing

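The number of members called in a comparison was within 1.5 times the reported one in 263 of 273 refits. The exceptions were the genotype comparison at 90 days with both treatments averaged, where DESeq2 called 1 gene and no filter on low counts 2, against 0 (0 to 2 when each mouse was left out in turn), and untreated WT mice between ages, where leaving out mice gave 0 to 1 calls. The genotype by age interaction in untreated mice kept 4 to 5 calls when mice were left out. With a block for the sample number, that count was 4, Fcgr4 (2.35) being lost, and the block changed no other count; the numbers recur on different mice and did not pair them. Requiring at least 10 counts in every mouse left 4 members, without Fcgr4.

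Changes of sign occurred only in values that were not called. With the caudal Hox score as covariate, the OKN007 difference of Fcer1g at 90 days was 0.041 in G93A and 0.017 in WT mice, its interaction was 0.024 (0.031 with no filter), and Fcgr2b between ages in WT mice was −0.006 (−0.004 with at least 10 counts). Without the 3 libraries of highest Alb, OKN007 against untreated in G93A mice at 155 days was −0.092 for Fcgr1 and −0.08 for Fcgr2b. When each mouse was left out in turn, the ranges that crossed 0 were as follows. For OKN007 against untreated in G93A mice at 90 days they were −0.35 to 0.20 for Fcgr2b, −0.40 to 0.008 for Fcgr3 and −0.23 to 0.11 for Fcer1g. In WT mice at 90 days they were −0.12 to 0.23 for Fcgr1, −0.024 to 0.051 for Fcgr3 and −0.11 to 0.001 for Fcer1g, and its interaction ran from −0.18 to 0.15. In G93A mice at 155 days they were −0.091 to 0.30 for Fcgr1, −0.007 to 0.30 for Fcgr2b, −0.21 to 0.048 for Fcgr3, −0.13 to 0.39 for Fcgr4 and −0.22 to 0.087 for Fcer1g. In WT mice at 155 days they were −0.057 to 0.21 for Fcgr3 and −1.57 to 0.18 for Fcgr4, whose interaction ran from −0.10 to 1.65. Between ages in untreated WT mice they were −0.044 to 0.12 for Fcgr2b and −0.81 to 0.56 for Fcgr4. The coding transcript length moved 21 per-length group means by more than 1 SD, of Fcgr2b, Fcgr3 and Fcer1g. Depth limits Fcgr4 in WT mice, at 0 to 13 counts per mouse.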
